A study of Mus musculus with 11 samples.

Results

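The SLC25 family was examined as the 47 protein-coding genes of the count table whose name is Slc25a followed by a number, out of 47131 genes in all. RNA with a poly(A) tail was sequenced for 6 libraries of mouse colorectal organoids given 10 pM NAP for 48 h and for 5 libraries of control organoids. Organoids are self-organising epithelial cultures, here embedded in Matrigel and started from colons of female C57BL/6J mice that were 6 to 8 weeks old. What NAP stands for is not spelled out in the labels, which describe the controls as untreated in the sample notes and as given phosphate-buffered saline in the treatment protocol. All 11 libraries carry batch label 1. Their titles call them biological replicates, but the labels do not tie them to different mice or cultures. The p-values below therefore set the difference between the groups only against the spread of these libraries, and how much of that spread is technical cannot be told.

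SLC25 carriers are membrane proteins that move nucleotides, phosphate, cofactors, amino acids, organic acids and metal ions, mostly across the inner membrane of mitochondria. They are encoded in the nucleus, made in the cytosol and inserted by a dedicated import route, and they set which metabolites the matrix exchanges with the rest of the cell. In the absorptive cells of the colon, which burn fatty acids, the adenine nucleotide, phosphate and carnitine carriers are among the routes that serve respiration. Not every member is an inner membrane protein: Slc25a17 works in peroxisomes and Slc25a46 sits in the outer mitochondrial membrane. Ucp1, Ucp2, Ucp3, Mtch1 and Mtch2 belong to the same protein family under other names and fall outside the naming rule.

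The promoter windows of the member that passed the test, Slc25a24, and of the related glutathione carriers Slc25a39 and Slc25a40, whose ratio differed between the groups, are printed here so that the base composition and motifs described later can be seen. They run from 250 bases before to 50 bases after the start of the gene in RefSeq on GRCm38.p6, and capitals mark the GC box, GGGCGG on either strand. The windows are chr3:109122899-109123198 on the plus strand for Slc25a24, chr11:102407468-102407767 on the minus strand for Slc25a39 and chr5:8422588-8422887 on the plus strand for Slc25a40.
Slc25a24: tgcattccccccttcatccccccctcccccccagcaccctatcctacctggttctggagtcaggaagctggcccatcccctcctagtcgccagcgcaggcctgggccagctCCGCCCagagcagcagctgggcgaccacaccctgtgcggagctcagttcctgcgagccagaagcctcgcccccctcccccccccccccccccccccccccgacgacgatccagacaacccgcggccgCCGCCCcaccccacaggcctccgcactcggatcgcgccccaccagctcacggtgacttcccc
Slc25a39: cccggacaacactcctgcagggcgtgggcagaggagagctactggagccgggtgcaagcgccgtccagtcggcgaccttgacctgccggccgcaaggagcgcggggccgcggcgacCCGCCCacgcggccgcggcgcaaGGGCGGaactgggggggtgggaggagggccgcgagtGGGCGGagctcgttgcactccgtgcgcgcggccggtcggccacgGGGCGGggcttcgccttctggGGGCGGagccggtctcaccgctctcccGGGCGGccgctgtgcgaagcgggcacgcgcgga
Slc25a40: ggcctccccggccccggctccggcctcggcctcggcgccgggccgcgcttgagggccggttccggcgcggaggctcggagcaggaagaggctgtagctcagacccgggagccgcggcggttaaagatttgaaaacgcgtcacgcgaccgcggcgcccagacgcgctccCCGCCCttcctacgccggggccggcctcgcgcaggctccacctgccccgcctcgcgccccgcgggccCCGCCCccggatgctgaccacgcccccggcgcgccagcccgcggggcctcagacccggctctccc
The GC box occurred 2 times for Slc25a24, 6 times for Slc25a39 and 2 times for Slc25a40, and G and C made up 72.3%, 77.3% and 79% of the bases in that order of genes. In these 3 windows there was no match to the CCAAT box (CCAAT), the E-box (CACGTG), the GABPA motif (CCGGAAGT) or the TATA box (TATAAA), each searched on both strands.

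Count totals lay between 16546263 and 21947414 per library. Libraries of a group were not equally alike: the median chi-square between 2 libraries over 11644 genes was 2.05 for controls 2 and 5 and 7.44 for controls 1 and 4, against 23.2 to 91.8 for the other control pairs, where sampling alone gives 0.455. Controls 2 and 5 therefore differed by more than sampling noise and were counted as separate libraries, but they stood together and apart from controls 1 and 4. The NAP libraries clustered too, at 3.18 to 4.47 among NAP libraries 2, 4 and 5 and 6.28 between NAP libraries 1 and 3, against 13.7 to 28.6 for the other NAP pairs. Controls 2 and 5 also had counts for more genes, 27218 and 25725, against 21172 to 22108 in the other controls and 19828 to 22390 in NAP libraries. Their TMM scaling factors were 0.855 and 0.848, against 1.05 to 1.24 in the other controls and 0.899 to 1.08 in NAP libraries. The part of these differences in the results was not tested. Of 14 absorptive colonocyte markers, none of them at 0, 7 had a positive and 7 a negative fold change and 1 was called, and their summed level was 10410 to 16700 CPM (counts scaled to the TMM-adjusted library total) in NAP libraries. In controls it was 4886, 21400, 7624, 3920 and 20800 CPM for controls 1 to 5. The sums of 8 proliferation markers and 13 stem cell markers ran the other way in controls. For proliferation the sum was 398 to 613 CPM in NAP libraries, against 773, 291, 632, 919.5 and 286 CPM in controls 1 to 5. For stem cells it was 871.5 to 1177 CPM in NAP libraries, against 1373, 764, 1224, 1718 and 853 CPM in controls 1 to 5. No gene of these 2 lists was called, with fold changes negative for 7 of 8 and for 11 of 12 tested. Of 7 fibroblast markers the summed level stayed at or below 52.7 CPM in NAP libraries and 31.9 CPM in controls, and of 5 smooth muscle markers at or below 0.283 CPM in NAP libraries and 1.68 CPM in controls. The mitochondrial chromosome took 5.17 to 8.08% of counts in NAP libraries and 2.74 to 4.78% in controls. In bulk RNA, fewer cells of a type and less RNA per cell cannot be told apart.

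Of the 47 members, 40 had enough counts to be tested. Slc25a24, a calcium-regulated carrier of ATP-Mg and phosphate, passed an adjusted p of 0.05 and was 1.85-fold higher in NAP libraries, and it was the only member to pass in edgeR's quasi-likelihood test. That is 2.5% of the tested members, beside 2.12% of all 14840 tested genes, so the share of members called was near the background. The log2 fold changes (NAP minus control) were positive for 17 members and negative for 23, with a median of -0.16, beside a median of -0.07 and 55.3% negative over all tested genes. An unadjusted p under 0.05 was reached by 14 members, 7 in each direction, which is 35% of those tested, beside 23.6% of all tested genes. The 2 groups of libraries did not overlap for 2 members, Slc25a24 and Slc25a16, which is 5% of those tested beside 4.71% of all tested genes. DESeq2 called 7 members, among them Slc25a16, Slc25a24, Slc25a40, Slc25a42 and Slc25a51, which were higher, and Slc25a1, which was lower. This is 14.9% of 47 beside 4.87% of 34002 genes. DESeq2 was run without the count filter, so its 34002 genes include many with few counts, which are hard to call. Of the members, 40 of 47 passed that filter, so these 2 shares are not on a like footing and their gap is not read as an excess. The median size of the log2 change, whatever its sign, was 0.35 in the members and 0.36 over all tested genes.

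**Figure D1:**
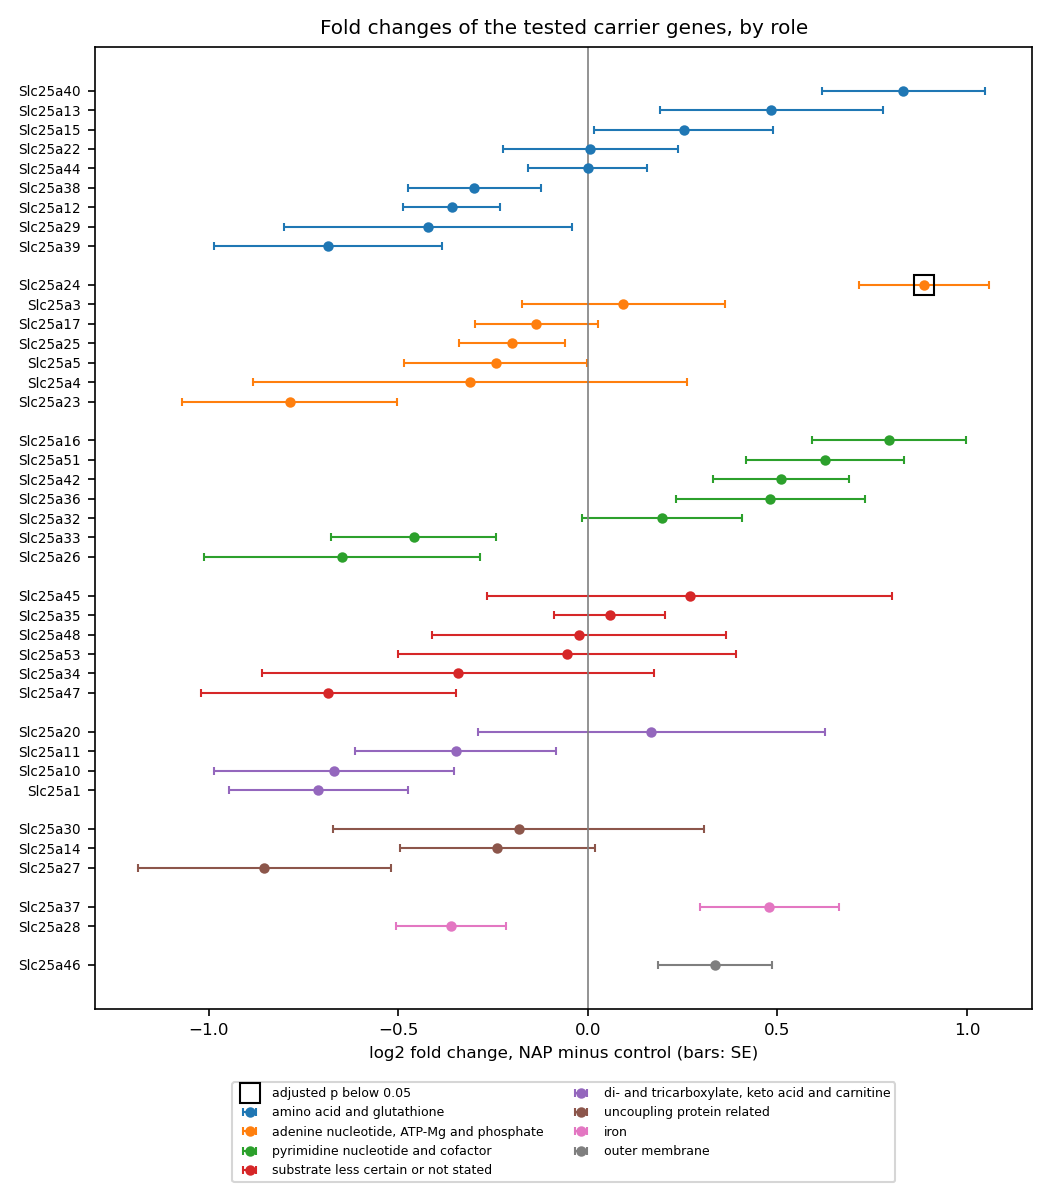
Log2 fold change of 39 tested carrier genes, NAP minus control, grouped by role, with bars of 1 SE. Slc25a24, at 0.89, carries the square for an adjusted p below 0.05, and members to the right and to the left of 0 occur in most role groups.

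The family as a whole took 0.482 ± 0.0187% of counts in NAP libraries (mean ± SD, n = 6) and 0.508 ± 0.0868% in controls (n = 5). Single libraries ran from 0.461 to 0.511% in the NAP group and were 0.45, 0.602, 0.498, 0.402 and 0.589% in controls 1 to 5. The control libraries therefore spanned the whole NAP range, with controls 2 and 5 above it and controls 1 and 4 below it. Slc25a3 and Slc25a5 together supplied 46.6% of all member counts. The control libraries also varied more for single members: the coefficient of variation was larger in controls than in NAP libraries for 29 of 40 members, with medians of 22.6% in NAP libraries and 32.7% in controls. Over all tested genes the control value was the larger for 62.8%, with medians of 26.1% in NAP libraries and 34.3% in controls.

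**Figure D2:**
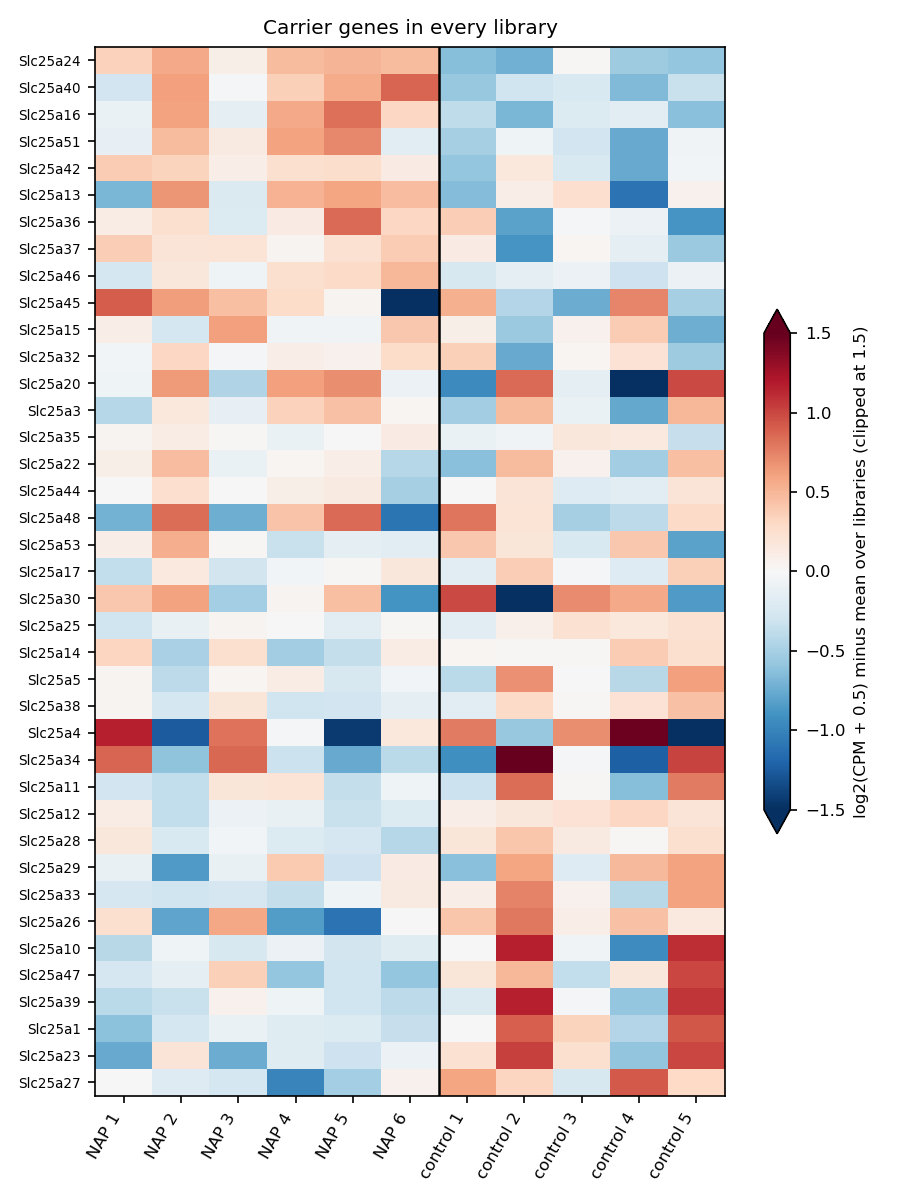
Level of 39 tested carrier genes in every library as log2(CPM + 0.5) minus the gene's mean over the 11 libraries, clipped at 1.5, with rows in order of fold change and NAP libraries left of controls. Controls 2 and 5 share a strong pattern in some of the lower rows (Slc25a10, Slc25a39, Slc25a1, Slc25a23). The lowest row, Slc25a27, does not show it and is highest in control 4, while the top row, Slc25a24, is high in each NAP library.

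Ranked per length by the deposited FPKM, which divides by gene length and library size, the ADP/ATP carrier Slc25a5 and the phosphate carrier Slc25a3 stood first. Slc25a5 had 766 ± 95.5 FPKM in NAP libraries and 903 ± 340.2 FPKM in controls, and Slc25a3 had 725 ± 157 FPKM in NAP libraries and 676 ± 262 FPKM in controls (SD, n = 6 and 5). These 2 levels do not differ beyond their spread. Next came the carnitine-acylcarnitine carrier Slc25a20, with 186 ± 60.2 FPKM in NAP libraries and 165 ± 119 FPKM in controls, and the citrate carrier Slc25a1, with 106 ± 12.8 FPKM in NAP libraries and 173 ± 67.7 FPKM in controls. Slc25a39 followed with 87.1 ± 12.4 FPKM in NAP libraries and 139.8 ± 76.5 FPKM in controls, and Slc25a24 with 92.3 ± 10.7 FPKM in NAP libraries and 49.6 ± 10.96 FPKM in controls. Neighbours from the third to the sixth place overlapped in their libraries. At the other end of the tested members, Slc25a53 had 0.0999 ± 0.038 FPKM in NAP libraries and 0.102 ± 0.0517 FPKM in controls.

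Among the carriers of adenine nucleotides, ATP-Mg and phosphate, 1 of 7 tested members was called. Slc25a24, with the gene identifier 229731, spans chr3:109030465-109075725 in GRCm39. It had a lowest level of 256 CPM, a median of 335 and a highest of 358 CPM in NAP libraries, against 154, 146, 243, 166 and 161 CPM in controls 1 to 5. Every NAP library lay above every control, and control 3 was the highest control. The means were 322 ± 36.4 CPM in NAP libraries and 174 ± 39.4 CPM in controls, a log2 fold change of 0.89 (SE 0.17, adjusted p = 0.0384 in edgeR's quasi-likelihood test). With the mitochondrial chromosome left out the value was 0.89 (adjusted p = 0.0395), and with controls 2 and 5 left out it was 0.80 (adjusted p = 0.0455). The call is close to the threshold: without NAP library 2, 4 or 5 the adjusted p was 0.111, 0.112 and 0.106 in that order, and without control 1, 2 or 5 it was 0.0853, 0.0978 and 0.0861, at fold changes of 0.85 to 0.88 on the log2 scale. NAP libraries 2, 4 and 5 are the 3 that stood close together.

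Slc25a54, a neighbour of the Slc25a24 gene that ends at 109023898 on the same chromosome, was at or near 0, with 5 counts in NAP library 6, 3 counts in control 2 and none elsewhere. Slc25a23, the paralog of Slc25a24 with the same substrates, had 18.7 to 36.5 CPM in NAP libraries with a median of 26.9, against 37.6, 65.7, 38.0, 21.1 and 64.5 CPM in controls 1 to 5. Control 4 lay inside the NAP range and the other controls above it. The fold change was -0.79 on the log2 scale (SE 0.28, adjusted p = 0.122), and -0.27 with controls 2 and 5 left out. Slc25a25, the third calcium-regulated paralog, averaged 23.2 ± 2.14 CPM in NAP libraries and 26.7 ± 2.90 CPM in controls, a log2 fold change of -0.20 that did not pass (adjusted p = 0.405). Slc25a41, a related carrier without the calcium-binding part, had 0 counts in every NAP library and in 3 controls, and 1 and 3 counts in controls 2 and 5.

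Slc25a5, which exchanges ADP for ATP in most dividing cells, had 819.7 to 1157 CPM in NAP libraries with a median of 1072.5, against 809, 1726, 1074.5, 801 and 1641 CPM in controls 1 to 5. Slc25a3, which brings in phosphate for ATP synthesis, had 892 to 1620.0 CPM in NAP libraries with a median of 1282, against 837, 1666, 1121.5, 702 and 1687.5 CPM in controls 1 to 5. In both genes controls 2 and 5 lay above all NAP libraries and controls 1 and 4 below them. The colonocyte marker sums of these 4 controls lie on the same sides of the NAP range, with control 3 below it too, the proliferation sums lie on the opposite sides, and their part in the result was not tested. Neither gene passed (log2 fold changes -0.24 and 0.09, adjusted p = 0.567 and 0.856). The sign of each turned among the alternatives: it was 0.22 for Slc25a5 with controls 2 and 5 left out, and -0.19 for Slc25a3 with controls 1 and 4 left out, beside 0.56 for Slc25a3 with controls 2 and 5 left out. Slc25a4, the ADP/ATP carrier of heart and muscle, ran the other way in controls, with 32.0, 12.2, 30.1, 52.0 and 4.94 CPM, and had 6.47 to 41.9 CPM in NAP libraries. Slc25a31, the testis form, had at most 5 counts in NAP libraries and 3 in controls, and the peroxisomal carrier Slc25a17 averaged 69.6 ± 10.4 CPM in NAP libraries and 76.5 ± 14.9 CPM in controls.

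**Figure D3:**
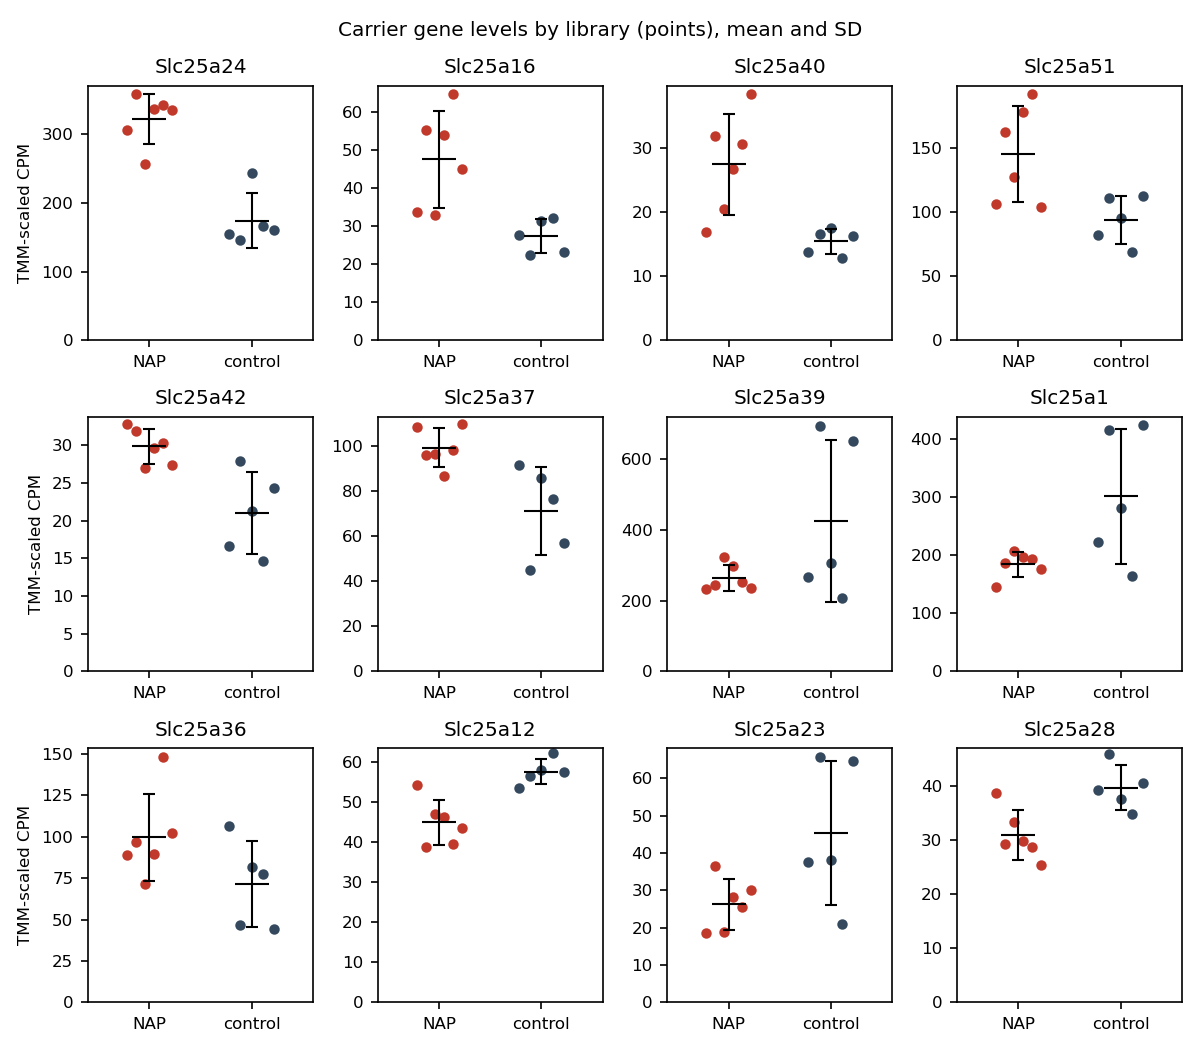
TMM-scaled CPM of 12 carrier genes in each library (points), NAP left of control, with the mean and SD as bars and each axis starting at 0. The groups separate for Slc25a24 and Slc25a16, and in Slc25a39, Slc25a1 and Slc25a23 controls 2 and 5 sit far above the other libraries.

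None of the 8 carriers of pyrimidine nucleotides and cofactors was called in edgeR, with 5 positive and 3 negative fold changes and an unadjusted p under 0.05 in 4; DESeq2 called 4 of them, Slc25a16, Slc25a42 and Slc25a51 included. Slc25a16, a carrier linked to coenzyme A, had 32.9 to 64.6 CPM in NAP libraries with a median of 49.3, against 27.8, 22.4, 31.3, 32.1 and 23.3 CPM in controls 1 to 5. All NAP libraries lay above all controls, though NAP libraries 3 and 1, at 32.9 and 33.7 CPM, lay just above control 4. The log2 fold change was 0.79 (SE 0.20, adjusted p = 0.058). Slc25a42, which carries coenzyme A against adenine nucleotides, had 27.0 to 32.8 CPM in NAP libraries with a median of 30.0, against 16.6, 27.9, 21.3, 14.7 and 24.3 CPM in controls. Only control 2 reached into the NAP range, and the log2 fold change was 0.51 (SE 0.18, adjusted p = 0.114).

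Slc25a51, the NAD carrier, had 104 to 192 CPM in NAP libraries with a median of 145, against 82.2, 111, 95.7, 68.6 and 112 CPM in controls 1 to 5. Controls 2 and 5 overlapped with NAP libraries 1 and 6, and the log2 fold change was 0.63 (SE 0.21, adjusted p = 0.0997). The carriers of pyrimidine nucleotides did not pass either: Slc25a33 averaged 13.4 ± 1.85 CPM in NAP libraries and 18.5 ± 5.86 CPM in controls, and Slc25a36 averaged 99.7 ± 26.1 CPM in NAP libraries and 71.3 ± 26.0 CPM in controls. Slc25a26, which brings in S-adenosylmethionine, and Slc25a32, which serves folate and flavin, had log2 fold changes of -0.65 and 0.20. Slc25a26 overlaps Lrig1 on the opposite strand, whose counts were 2289% of its own, so its reads are uncertain.

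Among the carriers of amino acids and glutathione, 0 of 9 tested members were called, with 5 positive and 4 negative fold changes; an unadjusted p under 0.05 was reached by 3 in edgeR, and DESeq2 called Slc25a40. Slc25a40 and Slc25a39 are related carriers that bring glutathione into mitochondria. Slc25a40 had 16.9 to 38.3 CPM in NAP libraries with a median of 28.6, against 13.7, 16.6, 17.5, 12.9 and 16.3 CPM in controls 1 to 5. NAP library 1 lay within the control range and the other NAP libraries above it, and the log2 fold change was 0.83 (SE 0.21, adjusted p = 0.0596). Slc25a39 had 234 to 324 CPM in NAP libraries with a median of 248.5, against 266, 695, 307, 208 and 652 CPM in controls. Controls 2 and 5 lay far above the NAP range, controls 1 and 3 inside it and control 4 below it. On the log2 scale it differed by -0.69 (SE 0.30, adjusted p = 0.191), and by 0.05 with controls 2 and 5 left out.

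Slc25a40 overlaps Dbf4 on the opposite strand, and the counts of Dbf4 were 93.7% of its own. No source used here gives the strand setting of the counting, so reads of the 2 genes cannot be told apart where they overlap. Dbf4 itself had a log2 fold change of -0.70 (adjusted p = 0.256). The same holds for Slc25a11, Slc25a25, Slc25a29 and Slc25a53, whose opposite-strand neighbours Rnf167, Naif1, LOC118568020 and Gm15038 had 35.6, 12.3, 57.4 and 192.5% of their counts in that order. The aspartate-glutamate carriers of the malate-aspartate shuttle differed in sign. Slc25a12 had 38.7 to 54.2 CPM in NAP libraries with a median of 44.8, against 53.5, 56.5, 58.0, 62.2 and 57.4 CPM in controls, and NAP library 1 was the only one inside the control range. The fold change was -0.36 on the log2 scale (SE 0.13, adjusted p = 0.117). Slc25a13 had 60.4 to 154 CPM in NAP libraries and 44.8 to 116 CPM in controls, and a log2 fold change of 0.48 (SE 0.29, adjusted p = 0.34).

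The other amino acid carriers spread around 0. The ornithine carrier Slc25a15 had a log2 fold change of 0.25, the glutamate carrier Slc25a22 0.01, the branched-chain amino acid carrier Slc25a44 0.00, the glycine carrier Slc25a38 -0.30 and the basic amino acid carrier Slc25a29 -0.42. Slc25a22 averaged 52.0 ± 10.6 CPM in NAP libraries and 51.8 ± 17.98 CPM in controls, and its sign turned in 8 of 29 alternatives. The second glutamate carrier, Slc25a18, failed the filter with 4 to 7 counts in NAP libraries and 2 to 9 in controls. Slc25a2, which carries ornithine in human cells, failed it too, with 17 counts in NAP library 6, 20 and 22 in controls 2 and 5, and 7 or fewer elsewhere.

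Among the carriers of di- and tricarboxylates, keto acids and carnitine, 0 of 4 tested members were called, 1 reached an unadjusted p under 0.05 in edgeR, and DESeq2 called Slc25a1. Slc25a1 exports citrate, from which the cytosol makes acetyl-CoA. It had 145.5 to 207 CPM in NAP libraries with a median of 189, against 222, 415, 280.4, 164 and 424 CPM in controls 1 to 5. Control 4 lay inside the NAP range and the other controls above it, controls 2 and 5 by the most. On the log2 scale the difference was -0.71 (SE 0.24, adjusted p = 0.1002), -0.25 with controls 2 and 5 left out and -0.99 with controls 1 and 4 left out. The dicarboxylate carrier Slc25a10 and the oxoglutarate carrier Slc25a11 had log2 fold changes of -0.67 and -0.35. Slc25a20, which brings acylcarnitines to beta oxidation, had 200.1 to 443 CPM in NAP libraries with a median of 340.1, against 141, 494, 247, 63.1 and 543 CPM in controls. The controls thus spanned more than the NAP range, high in controls 2 and 5, and the log2 fold change was 0.17 (SE 0.46, adjusted p = 0.85). Over 29 alternatives the log2 fold change of Slc25a20 ran from -0.33 to 1.17. Its sign turned in 3 of them, and it passed in none. Slc25a21, an oxodicarboxylate carrier, had 2 counts in NAP library 6, 1 in control 1 and none elsewhere.

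The iron carriers, known as mitoferrins, differed in sign. Slc25a37 had 86.6 to 109.6 CPM in NAP libraries with a median of 97.4, against 91.4, 45.1, 85.7, 76.4 and 57.1 CPM in controls 1 to 5, and control 1 was the only control inside the NAP range. The log2 fold change was 0.48 (SE 0.18, adjusted p = 0.138). Slc25a28 had 25.4 to 38.7 CPM in NAP libraries with a median of 29.6, against 39.2, 46.0, 37.7, 34.9 and 40.7 CPM in controls. NAP library 1 overlapped with controls 3 and 4, and the log2 fold change was -0.36 (SE 0.14, adjusted p = 0.154).

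The uncoupling protein relatives were low. Slc25a27 averaged 1.72 ± 0.538 CPM in NAP libraries and 3.11 ± 1.04 CPM in controls (log2 fold change -0.85, SE 0.33, adjusted p = 0.146). Slc25a14 reached at most 5.64 CPM in NAP libraries and 5.86 CPM in controls, Slc25a30 at most 6.52 CPM in NAP libraries and 8.71 CPM in controls, and neither passed. Slc25a46, which acts in mitochondrial shape and lipid transfer at the outer membrane, averaged 97.8 ± 17.9 CPM in NAP libraries and 77.5 ± 5.26 CPM in controls (log2 fold change 0.34, SE 0.15, adjusted p = 0.198). Members whose substrate is less certain gave 6 tested genes with no call and none at an unadjusted p under 0.05 in edgeR, and DESeq2 called none of them. The most abundant of them per length were Slc25a48, with 45.5 ± 25.8 CPM in NAP libraries and 46.2 ± 17.5 CPM in controls, and Slc25a34, with 13.2 ± 7.44 CPM in NAP libraries and 16.8 ± 13.2 CPM in controls. Slc25a35, Slc25a45, Slc25a47 and Slc25a53 had log2 fold changes of 0.06, 0.27, -0.68 and -0.06. Slc25a43 had 2 counts in NAP library 2, 2 or 3 counts in 4 controls and none elsewhere. A count of 0 allows up to 3 counts, for counting error only. Over library totals without TMM scaling, that is 0.143 to 0.181 CPM in a NAP library and 0.137 to 0.181 CPM in a control. On the TMM scale, 3 counts came to 0.21 CPM in control 2 and 0.21 CPM in control 5.

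Related carriers with the same substrate were then compared within a library, since the ratio of 2 genes does not depend on how libraries are scaled. For 8 pairs the log2 ratio of counts (0.5 added to each) was tested by a two-sided exact permutation test over every way to split 11 libraries into 6 and 5, with Benjamini-Hochberg adjustment over the 8 pairs. The smallest p this design allows is 0.002165. The test treats the 11 libraries as independent, whereas some stood closer together than others, as described above, so these p-values may be too small. The pairs share the genes whose levels are given above, so these ratios are another view of the same counts. In 5 of 8 pairs the ratio passed an adjusted p of 0.05. The same 5 had an unadjusted p under 0.05, beside 24.9% of all 780 pairs that can be made from the 40 tested members, and the groups did not overlap in 4 of 8, beside 6.92% of those 780 pairs. The 780 pairs share genes and libraries, 7 of the 8 are among them, and the 8 were chosen with earlier results of these data known. These shares are therefore a description. The p-values of the ratios were adjusted over the 8 pairs only and do not account for that choice, so they are not an independent test.

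Slc25a24 had 9.80 to 16.3 counts for each count of Slc25a23 in NAP libraries with a median of 12.6, against 4.09, 2.22, 6.40, 7.88 and 2.49 in controls 1 to 5. All NAP libraries lay above all controls, and controls 2 and 5 were the lowest. The mean ratio was 3.06-fold higher in NAP libraries (difference 1.61 on the log2 scale, exact permutation p = 0.002165, adjusted p = 0.00577). Slc25a25 had 0.0634 to 0.0993 counts for each count of Slc25a24 in NAP libraries with a median of 0.0693, against 0.143, 0.178, 0.119, 0.166 and 0.18 in controls. All NAP libraries lay below all controls, by 1.10 on the log2 scale in the mean (exact permutation p = 0.002165, adjusted p = 0.00577). Both ratios share Slc25a24, so within this group of 3 calcium-regulated carriers its share was higher in every NAP library than in any control.

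The ratio of the iron carriers also separated the groups: Slc25a37 had 2.79 to 4.32 counts for each count of Slc25a28 in NAP libraries with a median of 3.08, against 2.33, 0.979, 2.27, 2.19 and 1.40 in controls 1 to 5. All NAP libraries lay above all controls, with a difference of 0.89 on the log2 scale (exact permutation p = 0.002165, adjusted p = 0.00577). Slc25a40 had 0.0629 to 0.163 counts for each count of Slc25a39 in NAP libraries with a median of 0.105, against 0.0517, 0.024, 0.0572, 0.0621 and 0.025 in controls. The groups did not overlap, but NAP library 3, at 0.0629, lay just above control 4. The difference was 1.31 on the log2 scale (exact permutation p = 0.00433, adjusted p = 0.00866), and the reads shared with Dbf4 enter this ratio. Slc25a33 had 0.098 to 0.177 counts for each count of Slc25a36 in NAP libraries, against 0.153, 0.548, 0.195, 0.146 and 0.524 in controls. Controls 1 and 4 lay inside the NAP range, and the difference of -0.94 (exact permutation p = 0.0303, adjusted p = 0.0485) rested on controls 2 and 5: without them it was -0.25 (exact permutation, adjusted p = 0.299). This call was also lost in 9 of 11 fits that left out 1 library, each NAP library among them (exact permutation, adjusted p from 0.0229 to 0.14 over the 11).

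With controls 2 and 5 left out, 2 of the 8 pairs passed, Slc25a24 over Slc25a23 at 1.08 and Slc25a25 over Slc25a24 at -0.97 (each adjusted p = 0.0476, exact permutation). Slc25a37 over Slc25a28 was then 0.51 and Slc25a40 over Slc25a39 0.83 (adjusted p = 0.0635 and 0.0714). The other 3 pairs did not pass with all libraries: Slc25a12 over Slc25a13 differed by -0.86 (adjusted p = 0.104, and 0.0381 without NAP library 1), Slc25a18 over Slc25a22 by -0.16 (adjusted p = 0.685) and Slc25a4 over Slc25a5 by -0.04 (adjusted p = 0.957, all by exact permutation). Slc25a4 had 0.00715 to 0.0378 counts for each count of Slc25a5 in NAP libraries and 0.00303 to 0.0649 in controls. Slc25a5 therefore had more counts than Slc25a4 in every library.

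**Figure D4:**
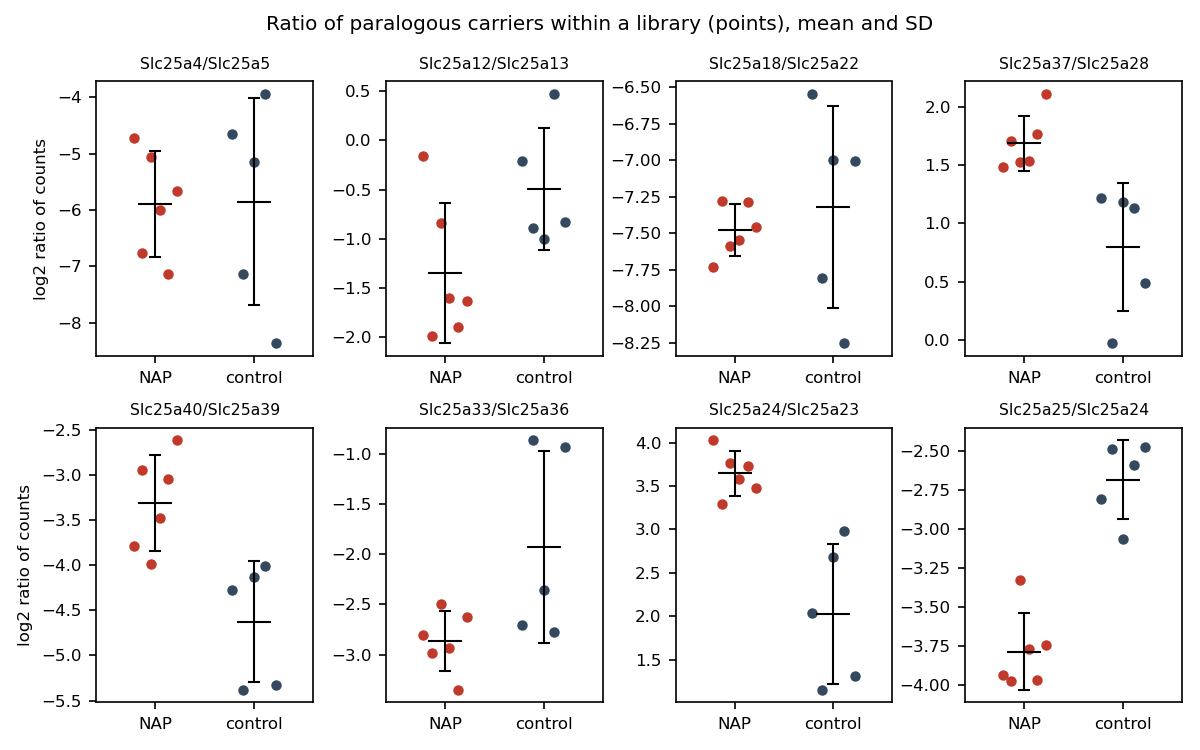
Log2 ratio of counts of 8 pairs of related carriers in each library (points), NAP left of control, with the mean and SD as bars. The groups do not overlap for Slc25a37/Slc25a28, Slc25a40/Slc25a39, Slc25a24/Slc25a23 and Slc25a25/Slc25a24, and controls span a wide range for Slc25a4/Slc25a5.

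Fold changes of the members were ordered by the base composition of their transcripts, a property taken from GENCODE M21. The 17 members with a positive fold change had a median GC content of 49.2% and the 23 with a negative one 54.2%, beside 50.8% over all tested genes. Spearman's rho between GC content and log2 fold change was -0.63 across the 40 members and -0.44 across 12472 tested genes with a known GC content. These genes share the same 11 libraries and are not independent replicates, so the values are a description. Slc25a40 and Slc25a36, at 39.3% and 38.8% GC, had positive fold changes, and Slc25a39 and Slc25a1, at 59.6% and 59.7%, had negative ones. Slc25a42, at 56.1% GC, was an exception with a positive fold change of 0.51.

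When each library's trend with GC content was removed, Slc25a24 stood at 0.80 (adjusted p = 0.0582) and no member passed in edgeR, with 9 at an unadjusted p under 0.05. Slc25a40 then stood at 0.43 and Slc25a39 at -0.24, with Slc25a1 at -0.25. The differences in ratio became smaller: 1.23 for Slc25a24 over Slc25a23, beside 1.61 with no trend removed, -0.83 for Slc25a25 over Slc25a24, beside -1.10, and 0.66 for Slc25a37 over Slc25a28, beside 0.89 (each adjusted p = 0.00505 over 7 pairs, exact permutation). With the trend in gene length removed as well, Slc25a37 over Slc25a28 stood at 0.45 (adjusted p = 0.00505, exact permutation). With the GC trend alone removed, the difference was 0.55 for Slc25a40 over Slc25a39 (adjusted p = 0.0189) and -0.42 for Slc25a33 over Slc25a36 (adjusted p = 0.26, exact permutation).

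**Figure D5:**
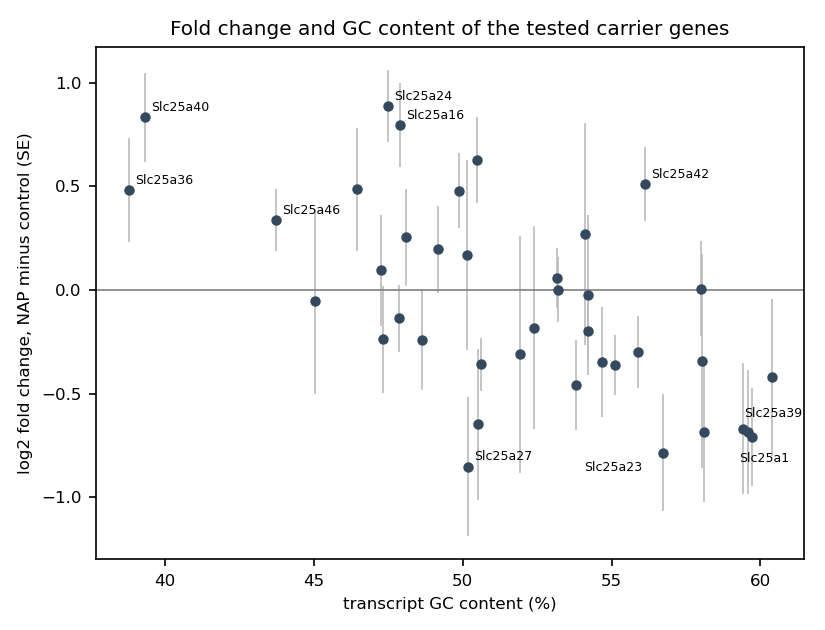
Log2 fold change (NAP minus control, bars of 1 SE) of 39 tested carrier genes against the GC content of their transcripts. Slc25a36, Slc25a40 and Slc25a46, the members under 45% GC, lie above 0, and Slc25a39 and Slc25a1, near 60% GC, lie below it. Others depart from this order: Slc25a53, at 45.05% GC, lies just below 0, and Slc25a42, at 56.1% GC, lies above it.

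RefSeq promoter windows were found for 36 members, 46 windows in all, of which several belong to the same gene and overlap. The GC box, shown in capitals in the sequences above, was present in 38 of them (82.6%), beside 35.7% of 32851 windows of all genes. The CCAAT box was in 47.8% of member windows beside 37.4% of all, the E-box in 17.4% beside 7.15%, the TATA box in 4.35% beside 13.6% and the GABPA motif in 2.17% beside 3.89%. Member windows had a median GC content of 59.3%, beside 52.7% over all windows. These are matches of letters in a window and say nothing about binding. The windows of all genes were not limited to genes with enough counts to be tested, while most members were tested. The shares are therefore not on a like footing, and their gaps are not read as a trait of the family.

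Genes that work beside the carriers were read from 12 lists. Their counts stand beside 55.3% negative fold changes and 23.6% at an unadjusted p under 0.05 over all tested genes, and beside 50.1% negative with controls 2 and 5 left out. Timm13, a small chaperone of the space between the mitochondrial membranes that belongs to the import route of carriers, fell: it had 44.9 ± 13.5 CPM in NAP libraries and 105 ± 45.7 CPM in controls (log2 fold change -1.23, SE 0.29, adjusted p = 0.0477). It was the only one of 10 tested genes of that route to be called. All 10 had a negative fold change, with a median of -0.52, and 6 reached an unadjusted p under 0.05. Over 29 alternatives 8 to 10 of them were negative, 9 with controls 2 and 5 left out. Shmt2, the mitochondrial serine hydroxymethyltransferase, fell to 74.7 ± 13.5 CPM in NAP libraries, against 130.0 ± 20.0 CPM in controls (adjusted p = 0.0405). Rrm2b, a ribonucleotide reductase subunit, rose to 14.0 ± 3.82 CPM in NAP libraries, against 6.42 ± 2.16 CPM in controls (adjusted p = 0.049). Those 2 were the calls among 16 enzymes of nucleotides, folate, methyl groups and thiamine, of which 5 had positive and 11 negative fold changes, 8 negative with controls 2 and 5 left out, and 4 reached an unadjusted p under 0.05. These 3 called genes, Timm13 included, kept their sign in 29 alternatives, but the call was lost in 19 for Timm13, 15 for Shmt2 and 20 for Rrm2b. The log2 fold change of Timm13 ran from -1.51 to -0.47 over these alternatives, that of Shmt2 from -0.89 to -0.36, beside -0.80 with all libraries, and that of Rrm2b from 0.71 to 1.34.

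Of 9 tested enzymes of ornithine, arginine and proline, 3 had positive and 6 negative fold changes, 5 negative with controls 2 and 5 left out. The other 9 lists had no call in edgeR, while DESeq2 called 1 or 2 genes in 8 of them, among them every gene named in these lists except Vdac1. Among 7 enzymes of the malate-aspartate and glycerol phosphate shuttles, 6 were negative, 4 with controls 2 and 5 left out, and 3 reached an unadjusted p under 0.05, the smallest for Got2, the mitochondrial aspartate aminotransferase, at -0.60 (adjusted p = 0.0518). Among 7 enzymes of citrate export, 6 were negative, 5 with controls 2 and 5 left out, and 2 reached it, led by Acaca, an acetyl-CoA carboxylase, at -0.69 (adjusted p = 0.0594). Of 14 enzymes of haem and iron-sulphur clusters, 11 were negative, 9 with RLE scaling and 5 with controls 2 and 5 left out, so the majority turned, and 5 reached that p, led by Urod, a haem synthesis enzyme, at -0.77 (adjusted p = 0.0539). Of 9 tested enzymes of glutamate and glutathione, 6 were negative, 3 with controls 2 and 5 left out, which turns the majority, and 3 reached that p, led by Gss, the glutathione synthetase, at -0.66 (adjusted p = 0.0889). All 9 tested enzymes of carnitine and beta oxidation were negative, 7 with RLE scaling and 3 with controls 2 and 5 left out, where the majority was positive, and 1 reached that p, Acads, a short-chain acyl-CoA dehydrogenase, at -1.12 (adjusted p = 0.0944).

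Family members outside the naming rule were negative in 3 of 3 tested, 2 of 3 with controls 2 and 5 left out, with 2 at an unadjusted p under 0.05 and Mtch1, of the outer membrane, at -0.65 (adjusted p = 0.0611). Among 18 tested genes of other inner membrane transport, 14 were negative, 9 with controls 2 and 5 left out, and 3 reached that p, with Letm1, a cation exchange protein, at -0.74 (adjusted p = 0.0726). Of 3 outer membrane channels, 2 were negative, 0 with controls 2 and 5 left out, and 0 reached it, and Vdac1 stood at 0.38 (adjusted p = 0.28). Of 13 regulators of mitochondrial biogenesis, 7 were positive and 6 negative, 7 negative with controls 2 and 5 left out, 3 reached it, and Gabpa, a transcription factor subunit, stood at 0.55 (adjusted p = 0.0855).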

How the data were processed

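RNA sequencing was analysed for 11 libraries, 6 NAP and 5 control, grouped and numbered by their titles. The authors deposited whole-number counts per gene, and FPKM values for the same genes. The submitters' processing notes name Trimmomatic 0.39 for trimming, HISAT2 2.2.1 for alignment, GRCm39 as the build and featureCounts (Subread 2.0.8) for counting. The strand setting and the handling of reads with several matches are not stated there, so overlapping and near-identical genes are uncertain. The pseudogene Slc25a5-ps held 18 counts in all.

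The fit covered the whole count table by edgeR 4.0.16 and its quasi-likelihood test (filterByExpr at its defaults, TMM, robust, R 4.3.3), with Benjamini-Hochberg adjustment over all 14840 tested genes and a threshold of 0.05. The SE is the log2 fold change over the square root of the test statistic. Levels are TMM-scaled CPM. FPKM was used to rank genes per length, in some of the alternatives and for the share of summed FPKM. Alternatives used DESeq2 1.42.0, limma 3.58.1, other scalings and filters, a block for the replicate number, libraries left out, and GC and length trends removed (lowess, span 0.3; transcript GC from GENCODE M21, found for 84.0% of tested genes). Joint removal of both trends, trend-free ratios, the shares over all pairs of members and the joining of controls 2 and 5 were chosen after seeing the data. The procedure was tested on simulated data.

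Values were given for members that passed, the 8 smallest p in each direction, the 2 highest by FPKM in each role group, both genes of each pair, and members that failed the filter; the remaining members are given by fold change so that each role group is complete. Slc25a10 and Slc25a53 also appear in captions, chosen after their values were seen. Of the other lists, called genes or else the smallest p are named. Where this rule names 1 member and 1 enzyme, their values are not reported here, and the member is left out of the figures. The members, pairs and lists were chosen with earlier results of these data known, so no p is adjusted over the list of members. RefSeq promoter windows are on GRCm38.p6, and gene coordinates are those of the deposited table.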

Additional observations from a re-analysis of the deposited data

Results flagged for a closer look

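Within the 6 NAP or 5 control libraries, the highest or lowest value was set against the others for 72 groups of values, and 2 stood apart by Dixon's 95% criterion; chance alone gives about 1 in 20. Slc25a24 was at 243.19 CPM in control 3, while the other controls lay between 146.06 and 166.08 CPM; without control 3 its log2 fold change was 1.04, beside 0.89 with all libraries. The log2 ratio of Slc25a25 to Slc25a24 was -3.3325 in NAP library 3, while the other NAP libraries lay between -3.9788 and -3.7434; without that library the difference between the groups was -1.19, beside -1.10 with all libraries.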

How the results depend on the processing

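All genes called (315) became 1656 with DESeq2, 41 with library totals only, 89 with no filter, 0 with the replicate block, 824 without controls 2 and 5, 1315 without controls 1 and 4, 43 with the GC trend removed, 0 with that and the replicate block, 26 with GC and length trends removed, 0 with controls 2 and 5 summed, and 0 to 814 with 1 library left out. Members called (1) became 7, 0, 0, 0, 2, 6, 0, 0, 1 and 0 in that order of settings, 2 with at least 10 counts in every library, and 0 to 3 with 1 library left out. Where all genes gave 0 calls in edgeR, 2176 to 3311 genes had an unadjusted p under 0.05, and where members gave 0 calls, 7 to 14 members had. The log2 fold change of Slc25a24 stayed between 0.79 and 1.04 in all 29 alternatives and lost its call in 13 (adjusted p from 5.03e-05 to 0.172); with GC and length trends removed the member called was Slc25a42. Of the 27 named members in the fit, 17 kept their sign and 10, none of them called in the main comparison, did not. The 5 pairs with a called ratio became 2 without controls 2 and 5, 0 with the replicate block (sign flips of 5 pairs, smallest p 0.0625) and 4 to 5 with 1 library left out, where Slc25a33 over Slc25a36 was called in 2 of 11 fits and Slc25a12 over Slc25a13 in 1, without NAP library 1, and the other 4 in all 11. The share of counts in NAP libraries (0.482%) became 0.516% without the mitochondrial chromosome and 0.542% of summed FPKM. In controls the share of 0.508% became 0.529% and 0.544% in the same order. The labels do not say whether replicate numbers pair libraries. Same-numbered deviations correlated at 0.42, 0.34, -0.07, -0.30 and 0.30, and NAP library 1 and control 1 were each other's best match. These values are mixed and too few to settle whether the numbers pair libraries. Why the counts of calls moved was not tested. Members with few counts, such as Slc25a18, limit what their ratios can show.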
